A study of Mus musculus with 12 samples.

Results

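The subject here is a set of 33 splicing regulators other than Esrp1 and Esrp2, read in the cochlear epithelium of mouse embryos. The set was given as a list of gene names from 12 families, and for each gene the transcript row with the largest sum of reads across embryos was used. All 33 members were found among the 22869 gene symbols of the table, 32 under their own symbol and Ptbp3 under its older symbol Rod1, and all 33 passed the filter on low counts that kept 14717 genes. RNA-seq was made from C57BL/6 embryos at embryonic day 16.5: 3 embryos of genotype Esrp1-/- (knockout) and 3 wild-type embryos (control). Each embryo's pair of cochleae was pooled, collagenase P was used to remove the mesenchyme around the epithelium, and polyA RNA went into 2 libraries per embryo, which stand together as 1 value here. The knockout is of the whole embryo, so the loss of Esrp1 is not limited to the cochlea, and the labels do not say which exons the allele removes.

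Splicing regulators bind short sequences in pre-mRNA and favour or block the use of nearby exons. SR proteins mostly promote the use of exons that they bind, and hnRNP proteins often block it, while the RBFOX, MBNL, CELF, NOVA, STAR and ELAV families act according to where they bind. Several of these proteins share target exons with the ESRPs in cultured cells, and some keep their own level steady by including an exon that holds a premature stop codon. The comparison therefore bears on the question of whether other regulators differ in abundance when Esrp1 is missing.

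Between 12547301 (knockout 1) and 21568516 (control 2) reads per embryo fell on genes. Esrp1 had 27.2, 34.3 and 39.1 CPM (read counts scaled to library size by TMM) in knockout embryos 1, 2 and 3, against 197, 102 and 118 CPM in controls 1, 2 and 3, which gives a log2 fold change of -2.05 ± 0.26 (SE) with an adjusted p = 0.0354 by the quasi-likelihood test of edgeR. Every knockout lay below every control. Without knockout 1, 2 or 3 or without control 3 the log2 fold change of Esrp1 was -1.93, -2.07, -2.18 or -2.16, with an adjusted p of 0.146, 0.158, 0.124 or 0.122 by the same edgeR test. Esrp2 did not pass the test (0.23 ± 0.26, adjusted p = 0.994). All 12 markers of cochlear epithelium were detected in every embryo, and their levels summed to 12879 to 16774 CPM in knockouts and 6057 to 12142 CPM in controls. Oc90 made up much of this sum, and without it the other 11 summed to 3696 to 6277 CPM in knockouts and 3018 to 5523 CPM in controls, with 4 of the 11 at a negative log2 fold change. All 12 markers of periotic mesenchyme were detected in every embryo too, at 3459.9 to 3526 CPM in knockouts and 2693 to 3878 CPM in controls. Genes of the sex chromosomes set 2 embryos apart. Xist was at 0.27 and 0.20 CPM, and the Y-linked gene Ddx3y at 94.97 and 81.9 CPM, in knockouts 2 and 3, while knockout 1 and the 3 controls had 1098 to 1808 CPM of Xist and at most 0.91 CPM of Ddx3y. The calls, log2 fold changes and tests of transcript rows were also computed without each embryo and with Xist as a covariate.

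No member passed the test in either direction. Of the 33 members, 0 were higher and 0 were lower in knockout embryos at an adjusted p under 0.05, against 0.0815% and 0.0679% of all 14717 genes. At an unadjusted p under 0.05 were 0 members, against 702 genes or 4.77% of all. DESeq2 also called 0 members, against 1.04% of the genes it tested, and among the members' 83 transcript rows 0 had an FDR under 0.05 in the authors' deposited table, against 0.775% of all rows. The members' adjusted p lay between 0.994 and 0.995. At backgrounds this low, 0 calls among 33 genes is near the share of the whole table and is no result about the members.

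The intervals say how large a difference these embryos could still hold. The 95% interval of the log2 fold change lay within 1 of 0, that is within a 2-fold change either way, for 28 of the 33 members, against 79.0% of all genes. It lay within 0.5 of 0 for 14 of the 33 members, against 5435 of all 14717 genes. The members whose interval went past 1 from 0 were Rbfox1, Rbfox3, Nova2, Srrm4 and Elavl2, all of them among the 7 neuronal members. The members' log2 fold changes ran from -0.36 (Nova2) to 0.23 (Mbnl3), with a median of -0.084 beside 0.0016 over all genes, and 27 members had a negative value, which 49.7% of all genes had. Leaving out 1 embryo at a time, the members' median lay between -0.16 (without knockout 3) and -0.022 (without knockout 1).

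**Figure D1:**
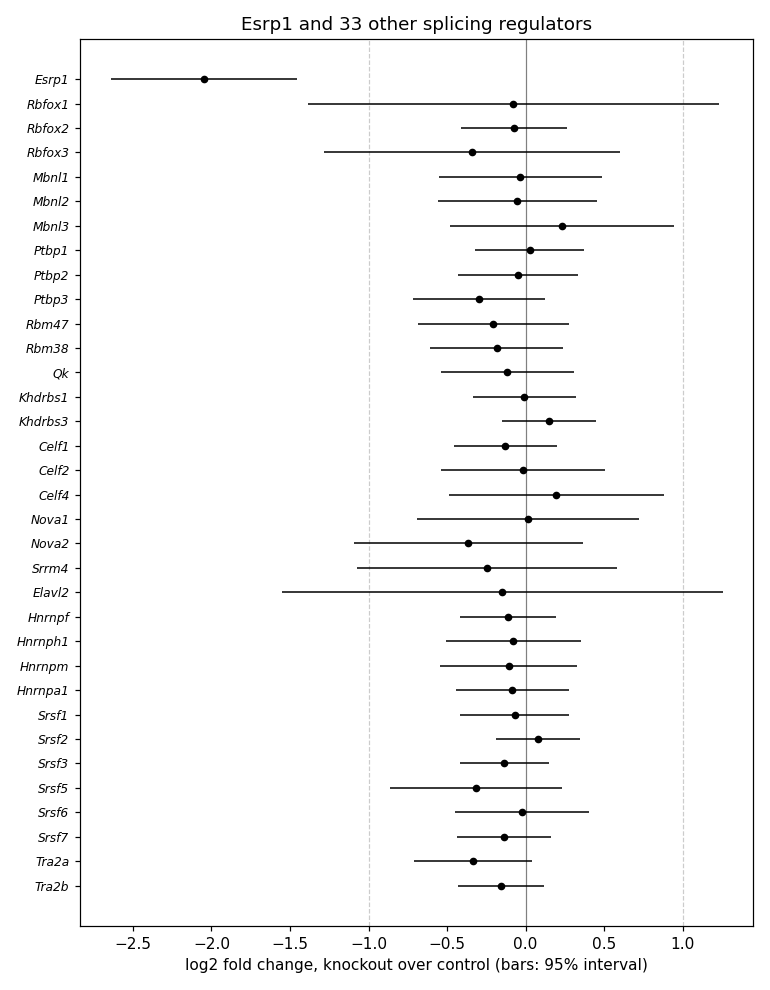
Log2 fold change (knockout over control) of Esrp1 and the 33 members, in the order of their families, with 95% intervals from edgeR's quasi-likelihood fit on 3 embryos each. Esrp1 lies at -2.05, and the members' points lie between -0.36 and 0.23 with intervals that all take in 0.

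Between genes, levels are compared in FPKM, the authors' deposited value per transcript length. The members' mean levels spanned a wide range, topped by Hnrnph1 with 109 ± 19.9 FPKM in knockouts and 114 ± 14.4 FPKM in controls (SD, n = 3 each). The lowest was Rbfox3, with 0.29 ± 0.019 FPKM in knockouts and 0.36 ± 0.23 FPKM in controls. After Hnrnph1 came Ptbp1 (87.9 ± 8.29 FPKM in knockouts and 83.4 ± 7.83 FPKM in controls), Hnrnpm (56.9 ± 10.9 and 61.0 ± 7.97 FPKM), Srsf3 (51.3 ± 6.09 and 54.7 ± 1.54 FPKM) and Srsf2 (57.4 ± 7.03 and 53.2 ± 2.79 FPKM), of which the last 3 lie within each other's spread. In controls the hnRNP, SR and SR-like members, Ptbp1 and Khdrbs1 were each above every other member. The neuronal members Srrm4, Nova2, Rbfox1, Nova1 and Rbfox3 were each under 1 FPKM on average in both groups.

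**Figure D2:**
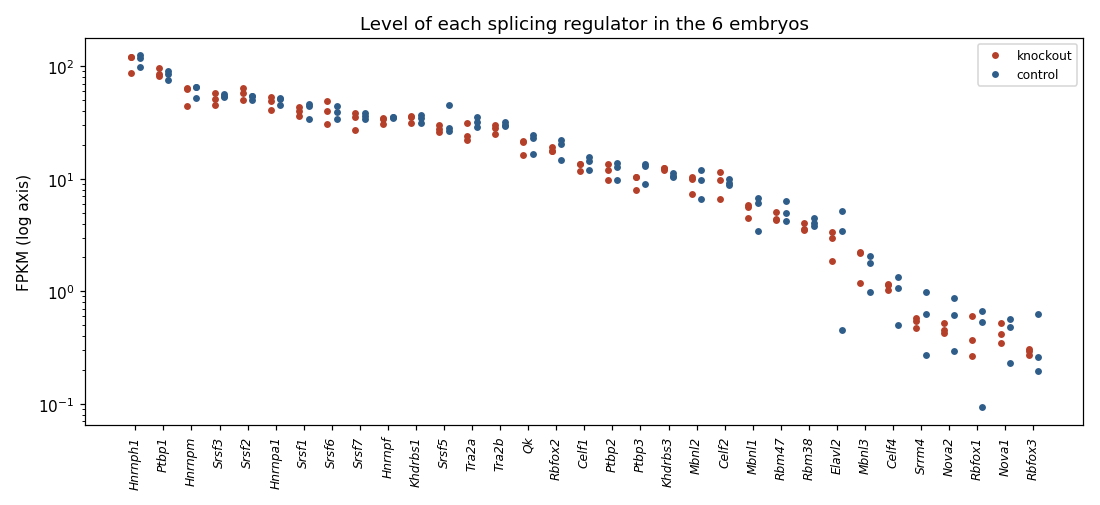
FPKM of each member in each embryo on a log axis, with members in falling order of their mean in controls. Red points are the 3 knockout embryos and blue points the 3 control embryos, and Hnrnph1 (109 FPKM in knockouts, 114 FPKM in controls) and Rbfox3 (0.29 and 0.36 FPKM) mark the ends.

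RBFOX proteins bind UGCAUG and act on many exons in muscle, brain and epithelia. Rbfox2 (chr15:77078990-77308434, mm10), the broadly expressed member, had 280.5, 319 and 323 CPM in knockouts 1, 2 and 3, against 273, 359 and 339 CPM in controls 1, 2 and 3. The groups overlapped, and the fit gave a log2 fold change of -0.074 ± 0.15 (SE, adjusted p = 0.994, edgeR). Rbfox2 made up 96.3 ± 0.67% of the FPKM of the RBFOX family in knockouts and 96.2 ± 1.81% in controls (SD, n = 3 each). Its interval of fold change ran from 0.752 to 1.20. The remaining RBFOX members are the neuronal Rbfox1 and Rbfox3, described below.

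MBNL proteins drive adult splicing patterns in muscle and brain. Mbnl2 was the highest of the family per length, with 68.1, 98.7 and 110 CPM in knockouts and 73.0, 95.6 and 118 CPM in controls, so that embryo 1 was lowest and embryo 3 highest in both groups. Its log2 fold change was -0.052 ± 0.22, and that of Mbnl1 was -0.033 ± 0.23. Mbnl3, which lies on the X chromosome and is best known from placenta and developing muscle, had the largest positive log2 fold change of the 33 members (0.23 ± 0.31, SE). Its levels were 22.9, 46.2 and 49.2 CPM in knockouts and 22.5, 35.9 and 42.4 CPM in controls. The groups overlapped, and the value was -0.60 with Xist as a covariate.

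PTBP proteins bind pyrimidine tracts and mostly block exons, and Ptbp1 gives way to its relative Ptbp2 as neurons form. Ptbp1 (chr10:79854432-79864435, mm10) had 585, 545 and 557 CPM in knockouts, against 649.7, 527 and 481 CPM in controls. All knockout values lay inside the control range, and the log2 fold change was 0.025 ± 0.15, with an interval of fold change from 0.801 to 1.29. The ratio of Ptbp1 to Ptbp2 in FPKM was 9.89, 6.27 and 6.85 in knockouts and 9.26, 6.12 and 5.93 in controls, highest in embryo 1 of each group. Ptbp2 itself had a log2 fold change of -0.051 ± 0.17. Ptbp3, known from blood cells, had the most negative value of the family (-0.30 ± 0.18, SE), with 123, 172 and 185 CPM in knockouts and 164, 207.5 and 219 CPM in controls. Knockout 1 was its lowest embryo, and the other 2 knockouts lay within the control range.

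Rbm47 and Rbm38 share the RNA recognition motif with the ESRPs, and Rbm47 is an epithelial regulator of splicing and RNA stability. Rbm47 had 49.4, 54.3 and 66.5 CPM in knockouts, against 86.4, 49.9 and 60.1 CPM in controls. Control 1 was higher than the other 5 embryos, and the log2 fold change was -0.21 ± 0.21 (SE). Rbm38, a p53 target that binds GU-rich RNA, had a log2 fold change of -0.18 ± 0.19. Control 1 was also its highest embryo.

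Of the STAR proteins, Khdrbs1 (Sam68) links signalling kinases to splicing and was the highest per length. It had 262, 320.2 and 352 CPM in knockouts and 312, 321 and 306 CPM in controls, and the range of the knockouts took in that of the controls. Its log2 fold change of -0.008 ± 0.14 was the nearest to 0 of the 33 members. Khdrbs3 had a value of 0.15 ± 0.13 and Qk, which is known for its role in myelination, -0.12 ± 0.19. Among the CELF proteins, Celf1 had 189, 234 and 247 CPM in knockouts and 228, 239 and 265 CPM in controls (-0.13 ± 0.14), with overlapping groups. Celf2 had 134, 213 and 267 CPM in knockouts and 219, 188 and 215 CPM in controls (-0.017 ± 0.23), so that knockouts held both its lowest and its highest embryo.

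The 7 neuronal members differed more within the controls than between the groups. They are Rbfox1, Rbfox3 (NeuN), Celf4, Nova1, Nova2, Srrm4, which switches on neuronal microexons and is needed by hair cells, and Elavl2, a neuronal RNA-binding protein. Elavl2 (chr4:91211533-91400108, mm10) had 27.7, 33.3 and 19.8 CPM in knockouts, against 5.01, 50.4 and 33.7 CPM in controls. Controls 1 and 2 were its lowest and highest embryos, 10.1-fold apart, and the knockouts lay between them (-0.15 ± 0.62). Nova2, the more abundant NOVA member per length, had 7.62, 9.61 and 8.41 CPM in knockouts and 6.14, 15.6 and 11.2 CPM in controls (-0.36 ± 0.32, SE). Srrm4 had 9.76, 9.66 and 9.14 CPM in knockouts and 5.39, 17.2 and 11.1 CPM in controls (-0.24 ± 0.36).

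The other 4 neuronal members had at most 12.5 CPM in any embryo. Rbfox1 had 3.89, 6.76 and 3.27 CPM in knockouts and 1.19, 7.39 and 6.09 CPM in controls (-0.079 ± 0.57), and Rbfox3 3.13, 3.01 and 3.34 CPM in knockouts and 2.38, 6.71 and 2.80 CPM in controls (-0.34 ± 0.41). Celf4 had 10.1, 11.2 and 10.7 CPM in knockouts and 5.26, 12.5 and 10.1 CPM in controls (0.20 ± 0.30). Nova1 had 8.39, 5.74 and 7.61 CPM in knockouts and 4.32, 9.21 and 7.87 CPM in controls (0.015 ± 0.31). In each of the 4 the knockout embryos lay inside the range of the controls.

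In 7 of the 7 neuronal members control 1 was the lowest embryo, as in 21.5% of all genes, and in 7 of 7 control 2 was the highest, as in 13.2% of all genes. This depends on which members are counted as neuronal. Ptbp2, not among the 7, was lowest in knockout 1 and equally high in knockout 2 and control 2 (108 CPM each), and Khdrbs3 was lowest in control 2. The highest embryo exceeded the lowest by 2.13-fold to 10.1-fold in the 7 neuronal members, and by 1.14-fold to 2.19-fold in the other 26. The 13 neuron markers, all 13 detected in every embryo and none at 0, summed to 826, 1006 and 801 CPM in knockouts 1, 2 and 3, against 303, 1373 and 835 CPM in controls 1, 2 and 3. Control 1 was the lowest and control 2 the highest for this sum as well, and each held for 11 of the 13 markers taken singly. Markers of other cells shared parts of this order. The macrophage and periotic mesenchyme sums were lowest in control 1 (46.7 and 2693 CPM). The endothelium and erythroid sums were highest in control 2 (447 and 2427 CPM). The Schwann cell genes Foxd3, Cdh19 and Fabp7 shared both extremes, though the Schwann cell sum shared neither. The part of these cell types in the values of the neuronal members was not tested. In such bulk samples, fewer neurons and less RNA per neuron cannot be told apart. Of these 7 members, 2 had an interval within 1 of 0 (Celf4 and Nova1), against 26 of the 26 others.

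**Figure D3:**
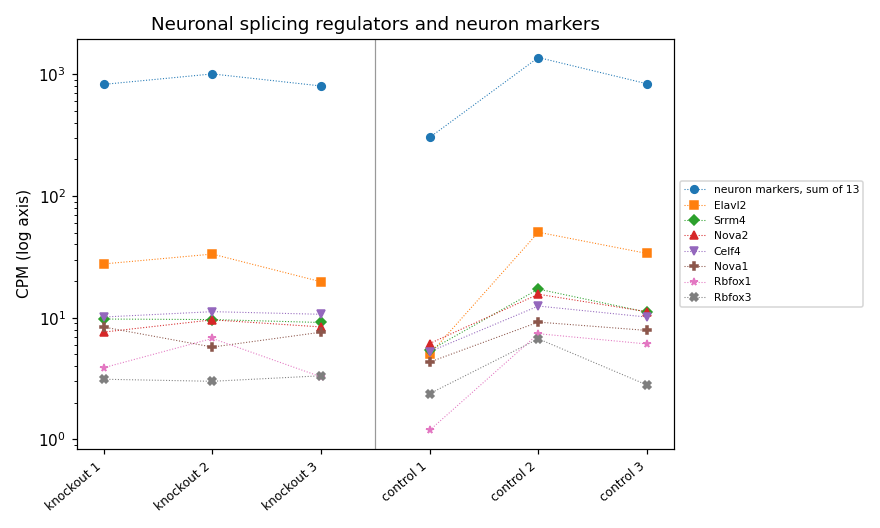
CPM on a log axis of the 7 neuronal members and of the sum of 13 neuron markers in the 3 knockout embryos (left of the line) and the 3 control embryos (right). Dotted lines only help to follow a gene. Control 1 (303 CPM of the markers) is lowest and control 2 (1373 CPM) highest for the sum and for each of the 7 members.

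The 4 hnRNP members have broad roles: hnRNP A1 often opposes SR proteins, hnRNP H and F bind runs of G, and hnRNP M is known to act against ESRP1 on shared exons in breast cancer cells. Hnrnph1 (chr11:50375257-50386528, mm10) had 394, 591 and 626 CPM in knockouts and 531, 564 and 608 CPM in controls. Hnrnpm (chr17:33646233-33685458, mm10) had 252, 380.2 and 415 CPM in knockouts and 348, 385 and 396 CPM in controls. For both, knockout 1 was lowest and knockout 3 highest, with the controls between them.

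The log2 fold changes of the 4 hnRNP members lay between -0.11 and -0.080, and those of Hnrnpm and Hnrnph1 were -0.11 ± 0.19 and -0.080 ± 0.19 (SE). Hnrnpa1 (-0.084 ± 0.16) and Hnrnpf (-0.11 ± 0.13) varied less between embryos. Without knockout 1 the value of Hnrnpm was 0.070. In 4 of 4 hnRNP members knockout 1 was the lowest embryo. It was lowest in 17 of the 33 members (51.5%), against 28.8% of all genes tested, and in 0 of the 7 neuronal members. Knockout 1 also had the fewest reads of the 6 embryos and was the only knockout with Xist, and the part of either in these values was not tested.

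SR proteins bind exonic enhancers, and the SR-like Tra2 proteins bind GA-rich ones. Srsf2 (chr11:116849897-116853675, mm10), the highest SR member per length by the mean of both groups, had 276, 262 and 248 CPM in knockouts and 253, 242 and 248 CPM in controls (0.080 ± 0.12, SE). Srsf3 (chr17:29032660-29043372, mm10) had 359.8, 341.5 and 321 CPM in knockouts and 396, 363 and 364 CPM in controls. It was the 1 member of 33 whose knockouts all lay below the controls, as 4.44% of all genes did, and 0 members had all knockouts above the controls, against 5.4% of all genes. The fit gave it a log2 fold change of -0.14 ± 0.12 (SE, adjusted p = 0.994, edgeR), with an interval of fold change from 0.748 to 1.11.

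Tra2a (chr6:49243921-49264248, mm10) had the smallest unadjusted p of the 33 members, 0.0722 by edgeR's quasi-likelihood test. It had 90.6, 136 and 113 CPM in knockouts, against 139, 135 and 155 CPM in controls. Knockout 2 lay within the control range, and the log2 fold change was -0.34 ± 0.16 with an interval from -0.71 to 0.038. Tra2b, at a level per length within the spread of Tra2a, had 137, 154 and 138 CPM in knockouts and 166, 149.6 and 162 CPM in controls (-0.16 ± 0.12).

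Srsf5 had 94.1, 109 and 101 CPM in knockouts and 183, 99.5 and 97.2 CPM in controls, so that control 1 stood above the other 5 embryos. Its log2 fold change was -0.32 ± 0.24, and without control 1 it was 0.045. Srsf6 had 359, 310.5 and 254 CPM in knockouts and 382, 294 and 263 CPM in controls, and was highest in control 1 too. The 9 immediate early genes, which are known to respond quickly to handling of tissue, summed to 485, 206 and 201 CPM in knockouts, against 1161, 242 and 214 CPM in controls. Their part in these levels was not tested. Of the 8 SR and SR-like members, 7 had a negative log2 fold change, among them Srsf7 (-0.14 ± 0.13) and Srsf1 (-0.069 ± 0.15), and the values ran from -0.34 to 0.080.

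**Figure D4:**
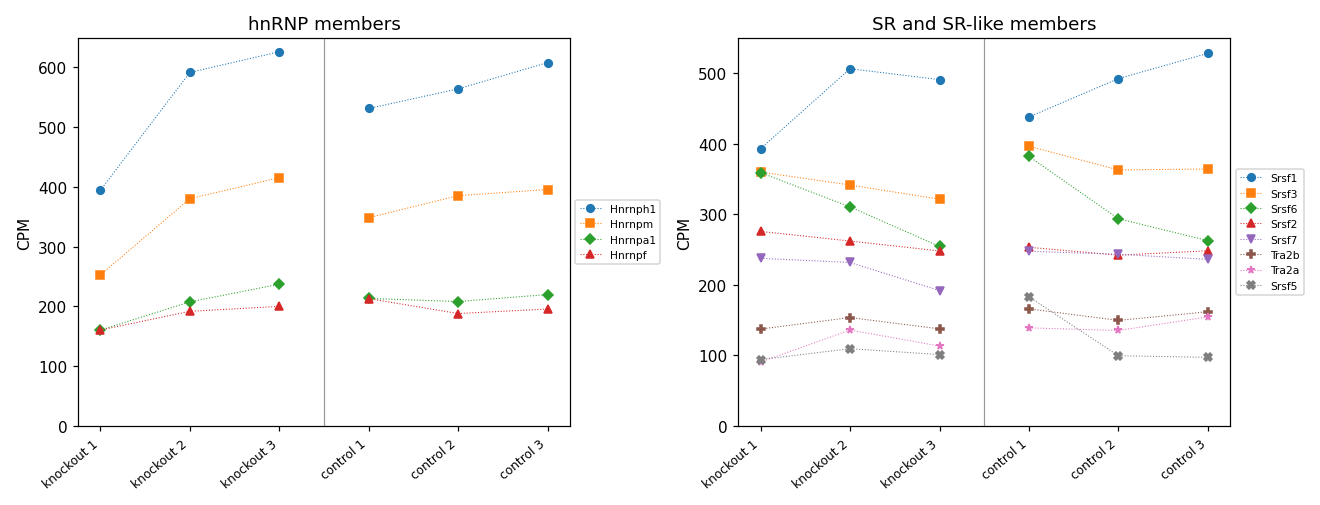
CPM of the 4 hnRNP members (left) and the 8 SR and SR-like members (right) in the 3 knockout embryos, left of the line in each panel, and the 3 control embryos, right of it. Dotted lines only help to follow a gene. Knockout 1 is lowest for the hnRNP members, and Srsf5 is at 94.1 to 109 CPM in knockouts and at 183, 99.5 and 97.2 CPM in controls 1, 2 and 3.

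A wider list of 67 splicing factors, all in the table and 66 of them tested, likewise held no call. By edgeR's quasi-likelihood test 0 were higher and 0 lower in knockouts (0.0815% and 0.0679% of all genes), 0 had an unadjusted p under 0.05 (4.77% of all genes), and DESeq2 called 0 (1.04% of its genes). Their median log2 fold change was -0.068, with 45 of 66 (68.2%) below 0, against 49.7% of all genes. Knockout 1 was lowest in 37 of them (56.1%), against 28.8% of all genes. The smallest unadjusted p belonged to Srsf10, a splicing repressor of the SR family active when dephosphorylated. It had 97.0, 131.9 and 109 CPM in knockouts, against 136, 132.3 and 143 CPM in controls (-0.28 ± 0.14, adjusted p = 0.994, edgeR). All its knockouts lay below its controls, as in 4.44% of all genes. Next came Khdrbs2 (-0.56 ± 0.40), Rbms3 (-0.28 ± 0.21) and Rbm39 (-0.20 ± 0.16).

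Many regulators are themselves alternatively spliced, and the table lists several RefSeq transcripts for a gene as rows that share most of their reads. Of the 33 members, 13 had 1 row and 20 had more. Where a main row held at least 60 more reads than a further row, those extra reads were divided by the reads of the main row, which gives a measure of the exon or end that the further row lacks. Of such pairs, 31 in 12 members could be tested, against 1774 pairs in 1188 genes.

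Sequences are shown for 2 internal exons held by the main row and missing from the further row, since their inclusion is known to set the level of the protein. Those of Srsf3 (chr17:29039454-29039909, plus strand, 456 bases) and Srsf7 (chr17:80204622-80205081, minus strand, 460 bases) are poison exons: reading into them meets a stop codon early, and GENCODE annotates the transcripts with them as targets of nonsense-mediated decay. Their sequences are shown from the exon's first base to the first in-frame stop codon, in capitals. Both are given on GRCm38, which mm10 represents, 5′ to 3′ on the gene's strand.
Srsf3 poison exon, start: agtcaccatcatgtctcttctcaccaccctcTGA
Srsf7 poison exon, start: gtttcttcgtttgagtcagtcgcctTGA

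No pair of rows passed the test. By limma with Benjamini-Hochberg adjustment, 0 of the 31 member pairs were called, as were 0% of all pairs, and 0 member pairs had an unadjusted p under 0.05, against 94 of the 1774 pairs. The smallest unadjusted p of a member pair was 0.120, and the adjusted p ran from 0.949 to 0.975. The median difference in log2 odds over the 31 member pairs was 0.12, beside 0.043 over all pairs. These 31 pairs come from 12 members, and pairs of the same gene share most of their reads.

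The poison exon of Srsf3 accounted for 3.96%, 5.55% and 2.53% of the main row's reads in knockouts 1, 2 and 3, against 4.14%, 3.36% and 3.65% in controls 1, 2 and 3. That of Srsf7 accounted for 4.62%, 5.28% and 2.78% in knockouts and 3.34%, 3.60% and 3.81% in controls. For both, knockout 2 was highest and knockout 3 lowest, with the controls between them. The differences in log2 odds were 0.049 ± 0.32 for Srsf3 and 0.20 ± 0.29 for Srsf7 (SE, adjusted p = 0.975 and 0.949, limma). The levels of these 2 genes count all rows' shared reads, so a transcript with the exon and one without it both add to them. Since the exon-bearing transcripts are removed by decay, their share of reads is not the share made.

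The rows of Qk, whose ends encode proteins that differ in their last residues and in where they sit in the cell, and those of Khdrbs1 differed by the most reads among the member pairs. In Qk, the end held by the main row took 42.6%, 39.2% and 38.6% of reads in knockouts, against 40.9%, 33.4% and 34.1% in controls. Controls 2 and 3 lay below all knockouts and control 1 among them, with a difference in log2 odds of 0.25 ± 0.16 (SE, adjusted p = 0.949, limma). The rows of Khdrbs1 differ in the main row's last exon, of whose 2368 bases 191 are also in the further row. The share of reads that the further row lacks was 31.5%, 28.9% and 30.6% in knockouts. It was 25.3%, 29.6% and 30.5% in controls (0.14 ± 0.14), with overlapping groups. For Celf1 the share was 19.3%, 20.2% and 22.1% in knockouts and 23.6%, 17.6% and 17.9% in controls (0.082 ± 0.18), again with overlapping groups.

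The member pair with the smallest unadjusted p was in Celf4, whose further row held few reads (23, 12 and 9 in knockouts and 3, 15 and 9 in controls). The share of the main row's reads that this row lacks was 82.7%, 94.3% and 94.4% in knockouts, against 96.4%, 94.5% and 95.2% in controls, so every knockout lay below every control, as in 4% of all pairs. This was the 1 member pair of 31 with separated groups, and 0 member pairs had all knockouts above the controls, against 5.47% of all pairs. The difference in log2 odds was -0.88 ± 0.49 (SE, adjusted p = 0.949, limma), and knockout 1 alone lay far from the rest.

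**Figure D5:**
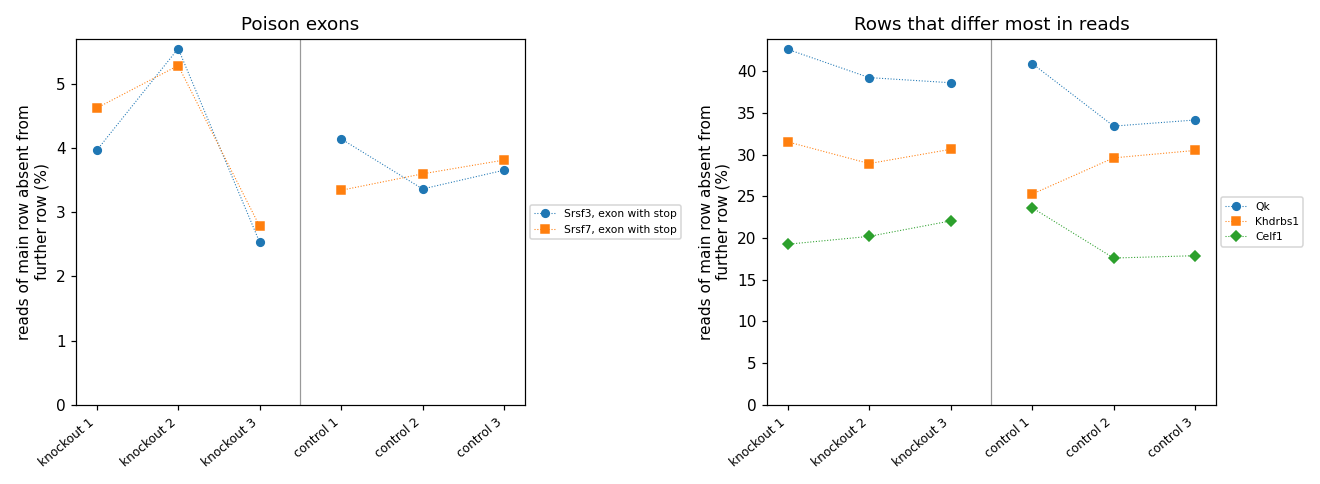
Reads of a gene's main row that a further row lacks, as a percentage of the main row's reads, in the 3 knockout embryos (left of the line in each panel) and the 3 control embryos (right). Dotted lines only help to follow a gene. The poison exons of Srsf3 and Srsf7 are both highest in knockout 2 (5.55% and 5.28%) and lowest in knockout 3 (2.53% and 2.78%).

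Some rows were separated by too few reads to compare. The rows of Ptbp1 differ in an internal exon of 78 bases (chr10:79860117-79860194, plus strand), known to set how strongly the protein represses neuronal exons, and in their first exon. These rows were separated by 4, 4 and 4 reads in knockouts and 1, 3 and 9 reads in controls. The rows of Srsf1 differed by 0 reads in every embryo. A change in the balance of these rows was not detectable in counts of this kind.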

How the data were processed

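RNA-seq of 6 cochlear epithelia (2 libraries each, 12 in all) was deposited as 1 table. Per the file headers, the authors' counts are raw reads per RefSeq transcript in 1 column per embryo, and their FPKM values are scaled by transcript length and library size. The authors' deposited log2 fold changes and FDR (adjusted p-values) come, per the file headers, from their own edgeR comparison over transcript rows. The build is mm10, per the submitters' processing notes. The sources used here do not give the aligner, the counter or the counting rule. Reads of overlapping genes may be shared, although no member had the counts of another symbol. Another 15 columns of the table were left aside.

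The members and gene lists were chosen with earlier results of these data known. Genes were filtered with filterByExpr (minimum count 10) and tested with edgeR 4.0.16 (R 4.3.3), TMM scaling, the quasi-likelihood F test and Benjamini-Hochberg adjustment over all 14717 genes, with a threshold of 0.05. Standard errors are the absolute log2 fold change divided by √F, and intervals are at 95%. Pairs of rows were tested with limma 3.58.1 on log2 odds (offset 0.5 reads, at least 60 reads of difference, none negative). Reads found only in the further row lower the share. DESeq2 1.42.0 was an alternative. The edgeR and limma tests were checked on simulated data, and DESeq2 was not. Per-embryo values are given for members with a separated group or small p and for the highest of each family, by FPKM. Other members given in full were taken up after their values were seen. Exons were read from GENCODE M21 on GRCm38 through RefSeq links. Pairs of rows not described singly are covered by the counts over all pairs, and a result on 1 exon is not reported here.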

Additional observations from a re-analysis of the deposited data

How the results depend on the processing

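Of the 33 members and the further splicing factors, 0 were called under any alternative tried: RLE size factors, no filter, DESeq2, the replicate block, the row with the highest FPKM, Xist as a covariate, leaving out both embryos numbered 1, and leaving out each embryo. Of the member pairs of rows, 0 were called with the replicate block, Xist as a covariate, an offset of 2 reads, a minimum of 200 reads (29 pairs), the plain log2 ratio (50 pairs), without both embryos numbered 1, or without each embryo. The smallest adjusted p of a member was 0.0804 (Hnrnpm with Xist as a covariate, edgeR). In that fit, which rests on knockout 1 against the controls, the members' median was -0.38 and 10 members had an unadjusted p under 0.05. Such members numbered 6 without both embryos numbered 1 and 3 without control 1. They numbered 1 with the replicate block, 1 without knockout 2 and 0 in the other alternatives. The share of all genes at that threshold was not computed for these fits. Of 429 alternative member values, 56 in 24 members changed sign. The log2 fold change was 0.13 for Rbfox1 and 0.20 for Elavl2 with the replicate block, -0.60 for Mbnl3 and 0.22 for Srsf6 with Xist as a covariate, and for Nova1 -0.0038 with no filter and -0.0024 with DESeq2.

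Without both embryos numbered 1 it was 0.0088 for Ptbp2, 0.13 for Rbm47, 0.013 for Rbm38, 0.25 for Celf2, -0.057 for Celf4, -0.37 for Nova1, 0.089 for Khdrbs1, 0.021 for Hnrnpf, 0.046 for Hnrnph1, 0.017 for Hnrnpm, 0.045 for Hnrnpa1, 0.090 for Srsf5 and 0.014 for Srsf6. Leaving out 1 embryo at a time, it lay between -0.53 and 0.34 for Rbfox1, -0.18 and 0.0063 for Rbfox2, -0.60 and 0.28 for Rbfox3, -0.24 and 0.15 for Mbnl1, -0.21 and 0.13 for Mbnl2, -0.067 and 0.16 for Ptbp1, -0.15 and 0.089 for Ptbp2, -0.37 and 0.044 for Rbm47, -0.23 and 0.038 for Qk, -0.26 and 0.20 for Celf2, -0.084 and 0.47 for Celf4, -0.24 and 0.24 for Nova1, -0.57 and 0.20 for Srrm4, -0.11 and 0.092 for Khdrbs1, -0.64 and 0.47 for Elavl2, -0.21 and 0.091 for Hnrnph1, -0.26 and 0.070 for Hnrnpm, -0.22 and 0.047 for Hnrnpa1, -0.14 and 0.028 for Srsf1, -0.48 and 0.045 for Srsf5, and -0.16 and 0.14 for Srsf6. The causes were not tested.

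Over all genes, 12 were higher and 10 lower in knockouts. The counts were 20 higher with no filter, 105 and 61 with DESeq2, 3 and 3 with the replicate block, 5 and 0 with Xist as a covariate, 109 and 50 without both embryos numbered 1, and 0 to 21 higher and 0 to 9 lower leaving out 1 embryo. Same-numbered knockout and control embryos correlated in their deviations from group means by 0.077, 0.18 and 0.029, so the numbers were not taken as a pairing; under the block 1 member had an unadjusted p under 0.05. The adjusted p of Esrp1 was 0.134 with the replicate block and 0.0781 with Xist as a covariate (edgeR). With 3 embryos a group, the intervals of Rbfox1, Rbfox3, Nova2, Srrm4 and Elavl2 still take in a 2-fold difference.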

Other observations

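The kinases Clk1 and Clk4, which phosphorylate SR proteins and are themselves spliced under that control, were ordered among knockouts like the poison exons of Srsf3 and Srsf7. Clk1 had 114, 134 and 65.1 CPM in knockouts 1, 2 and 3, against 118, 94.0 and 95.7 CPM in controls 1, 2 and 3. Clk4 had 42.5, 47.4 and 24.6 CPM in knockouts, against 54.2, 35.8 and 33.7 CPM in controls. In both genes knockout 2 was the highest knockout and knockout 3 the lowest of the 6 embryos. The related kinases Clk2 and Clk3 were ordered otherwise. Clk2 had 41.5, 47.9 and 44.6 CPM in knockouts 1, 2 and 3, and Clk3 had 81.2, 68.3 and 63.1 CPM. The order of Clk1 and Clk4 was not particular to them. Rbmx, of the wider list, had 96.5, 107 and 89.3 CPM in knockouts 1, 2 and 3, and the endothelium sum was 326, 351 and 215 CPM. Knockout 3 was the lowest of the 6 embryos for both, as in 11.8% of all genes. The share of all genes with the whole order was not computed. The measure used for the poison exons was read in 14 other genes whose main row GENCODE annotates as a target of nonsense-mediated decay. It is the share of the main row's reads that a protein-coding further row lacks. This share was highest in knockout 2 in 3 genes and lowest in knockout 3 in 1, while control 1 was lowest in 5. Knockout 2 lay above knockout 3 in 8 of the 14. These genes were taken up after their values were seen, and the cause of the order was not tested.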
